A study of Citrus sinensis with 2 samples.

Results

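A total of 76 miRNA names of the rice series were examined in small RNA of sweet orange (Citrus sinensis) leaves, out of 1215 known miRNA names in the count table. The names were those from miR1423 to miR1442, miR1846 to miR1884, miR2863 to miR2880 and miR5788 to miR5837. MiR1869 was excepted, for which no reason is known. It had 28170 counts (1386 RPM) in the Mg-deficient and 2119 counts (95.4 RPM) in the Mg-sufficient library. Among the rice-series names it would have been the second most abundant in the Mg-deficient library. These ranges hold 126 numbers, and 76 of them had at least 1 read in at least 1 library. The table gives no species beside a name. Whether a name is from rice could therefore not be checked in the table, and the ranges stand for blocks of numbers given to rice miRNAs.

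The study compared leaves of 'Xuegan' seedlings watered with nutrient solution without magnesium (0 mM MgSO4, Mg-deficient) with leaves of seedlings given 1 mM MgSO4 (Mg-sufficient, the control), both for 16 weeks. In the Mg-deficient solution magnesium sulfate was replaced by sodium sulfate. Each treatment has 1 library, made from fully expanded leaves of 5 replications that were mixed before RNA extraction. No difference between the libraries could thus be set against a spread between replicates, and every interval below covers counting error only. Small RNA counts hold no marker genes of leaf cells, so the tissue label was not checked, although the extraction notes name roots beside leaves.

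Plant miRNAs are cut from hairpin precursors by Dicer-like enzymes, are loaded into Argonaute proteins and pair with messenger RNAs along nearly their whole length, which usually leads to cleavage of the target. Some families are shared by nearly all flowering plants. Others, among them many numbers first assigned in rice, are young, are found in few species and are usually weakly expressed. Rice also makes long miRNAs that direct DNA methylation in place of cleavage, and miR1863 was described among them. Among the names listed here, miR1425 targets genes of pentatricopeptide repeat proteins in rice, miR1432 targets an acyl-CoA thioesterase gene in rice, and miR1873 dampens rice immunity to blast fungus. Whether the citrus reads counted under these names have such roles was not tested. The RefSeq gene table of the sweet orange assembly DVS_A1.0 holds 129 miRNA genes, and 0 of the 76 names has a gene of the same number there.

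Sequences were available for 35 of the 76 names, from the study's supplementary list of known miRNAs. The 10 of these that changed beyond the calling thresholds are shown because the results turn on them, 5′ to 3′, with the seed (bases 2 to 8) in capitals. The first 6 were higher and the last 4 lower in the Mg-deficient library. In plants, pairing extends well beyond the seed, which serves here to compare names.
miR5832: uUGGCGGAgcgauuuguc
miR5813: aCAGCAGGacgguggucaugga
miR5807: aGGACUCUaggaggugauguggc
miR1851: aUAUGGGAuggcauuuggc
miR5821: uGCGGAGGgauggugggag
miR1440: uUAAGGAGagguuggcuauuugag
miR2863: aUAUAGGGacuaaaugggcaaa
miR5818: uCGAACUGagaggcacagguu
miR5789: uGAUGAGCaucuggucgguau
miR5830: aUGAGAGGaggugaugugacauca
None of the 10 seeds is shared with another of the 35 names. Outside the rice series, the seed of miR1851 is also that of miR7780 and the seed of miR5789 is also that of miR6484, among the 690 names with a listed sequence.

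Read-counts were normalized to reads per 1000000 clean reads of the library (RPM, which the study calls TPM), with 20328011 clean reads in the Mg-deficient and 22218850 clean reads in the Mg-sufficient library. Known miRNAs took up 14.8% of the clean reads in the Mg-deficient and 22.9% in the Mg-sufficient library. Names that reached 10 RPM in either library, or in both, passed the abundance filter. Among them a call needed 1 tail of the Audic-Claverie formula, which compares the reads of 2 libraries, to be below 0.01 and the log2 ratio (Mg-deficient over Mg-sufficient) to be beyond 1.5 in either direction. Such a call compares the libraries and not the treatments. Where a library had 0 counts, the fold is a lower bound against 3 counts in that library (0.148 RPM Mg-deficient, 0.135 RPM Mg-sufficient), and the counting interval can reach below this bound. Reads matched with up to 2 mismatches were counted by the authors, and how a read that fits several names was counted is not given in the sources used here.

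The rice-series names were weakly represented, and their total in the Mg-deficient library was dominated by few of them. All 76 names together had 73153 counts (3599 RPM) in the Mg-deficient library and 17105 counts (769.8 RPM) in the Mg-sufficient library. This is 2.44% of all reads of known miRNAs in the Mg-deficient and 0.336% in the Mg-sufficient library. The log2 ratio of the sums was 2.22 (95% exact Clopper-Pearson interval, 2.20 to 2.25), whereas all known miRNAs together had a log2 ratio of -0.63. MiR5832 and miR5813 alone held 85.3% of the members' counts in the Mg-deficient library. In the Mg-sufficient library the top 2 names, miR5813 and miR2868, held 36.2%. Without miR5832 the log2 ratio of the sums was 1.05, and without both it was -0.18 (-0.22 to -0.14), with 530.1 RPM in the Mg-deficient and 601.2 RPM in the Mg-sufficient library. The sign of this last value depended on the scaling, with -0.44 for exchanged clean-read totals but 0.45 for the known miRNA total, 0.16 for edgeR's TMM and 0.19 for DESeq2's size factors. Most of the difference between the sums came from these 2 names under each scaling. The median of the higher of both RPM values was 1.23 RPM for the rice-series names and 1.67 RPM for all names. It was 157 RPM for 34 conserved families (such as miR156, miR166 and miR172), which took up 63.2% of all reads of known miRNAs in the Mg-deficient and 82.3% in the Mg-sufficient library.

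**Figure D1:**
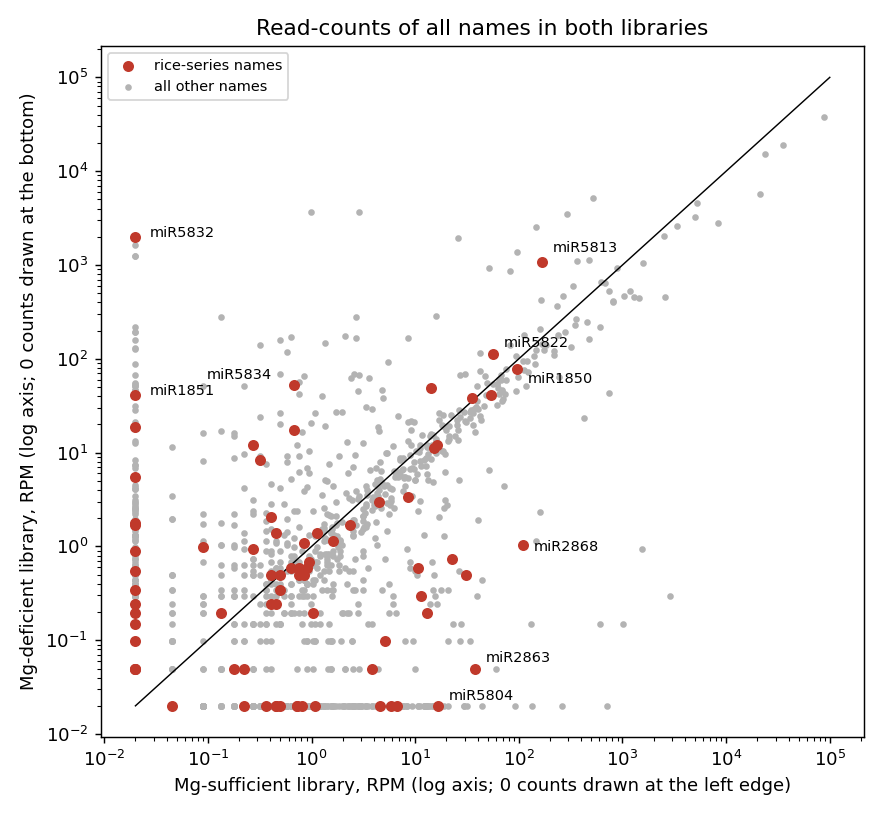
Normalized read-count (RPM, log axes) of every known miRNA name in the Mg-deficient library (vertical) and the Mg-sufficient library (horizontal), 1 point per name, with the 76 rice-series names in red and the line of equal values in black. A name with 0 counts is drawn at the edge; miR5832, at 2005 RPM in the Mg-deficient library, is the highest of the rice-series names and lies on the left edge.

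By block of numbers, the largest sums were those of miR5788 to miR5837, with 34 of 50 numbers listed and 3333 RPM in the Mg-deficient against 337 RPM in the Mg-sufficient library (log2 ratio of the sums, 3.31). The 24 names between miR1846 and miR1884, of 38 numbers, had nearly equal sums of 236.5 RPM in the Mg-deficient and 242.3 RPM in the Mg-sufficient library, a log2 ratio of -0.03 (-0.09 to 0.02). This near equality held only without miR1869, with which the sums were 1622 RPM in the Mg-deficient and 337.7 RPM in the Mg-sufficient library (log2 ratio 2.26). The near equality also depended on the scaling. The other scalings tried shifted the median log2 ratio of all names that passed the filter by -0.26 to 0.63. The 7 names between miR2863 and miR2880, of 18 numbers, were the only block with a clearly smaller sum in the Mg-deficient library, 2.36 RPM against 186.3 RPM in the Mg-sufficient library (log2 ratio -6.30, interval -6.74 to -5.89). The 11 names between miR1423 and miR1442, of 20 numbers, had the smallest sum in the Mg-sufficient library, with 27.0 RPM in the Mg-deficient and 4.41 RPM in the Mg-sufficient library. Numbers in a block follow the order of naming and do not mark a family, so that names of a block need share neither sequence nor target.

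**Figure D2:**
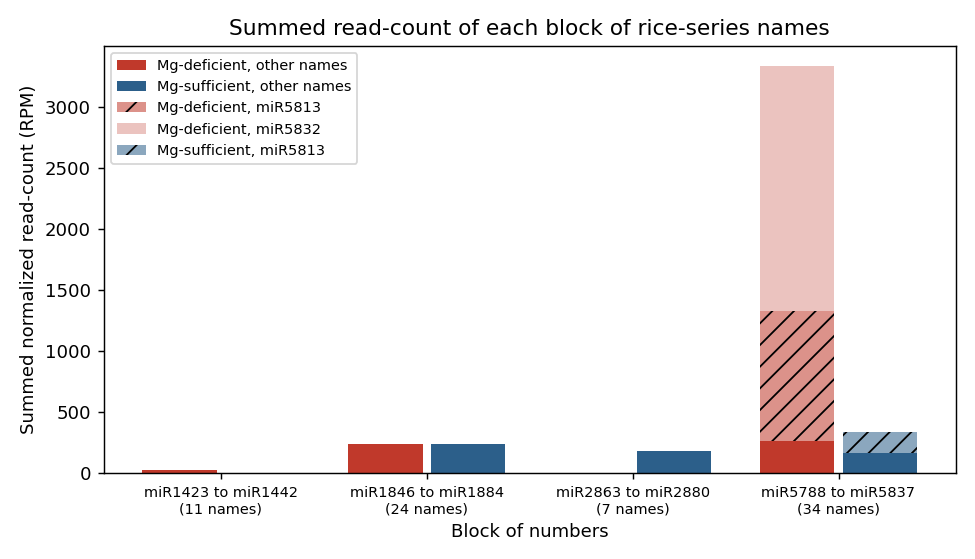
Summed normalized read-count (RPM, linear axis from 0) of the rice-series names in each block of numbers, with the Mg-deficient library left of the Mg-sufficient library and the parts of miR5832 and miR5813 shaded separately. The tallest bar, 3333 RPM in the Mg-deficient library, is mostly miR5832 (2005 RPM) and miR5813 (1064 RPM).

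The abundance filter was passed by 22 of the 76 names (28.9%), beside 26.7% of all 1215 names. Of the 22, 16 were called (72.7%), beside 53.7% of the 324 names that passed in the whole table. Of the calls, 8 were higher (36.4%, beside 28.1% of all names that passed) and 8 lower (36.4%, beside 25.6%) in the Mg-deficient library, or 9 higher and 8 lower with miR1869. Of the conserved families, 2 were called higher and 4 lower among the 25 that passed. No test of the differences between these shares was run. The median log2 ratio was -0.35 for the 22 names and -0.30 for all names that passed. More than 3 counts in both libraries were present for 5 of the names called higher and for 6 of those called lower, so that the other 5 calls rest on a library with 0 or 1 count.

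**Figure D3:**
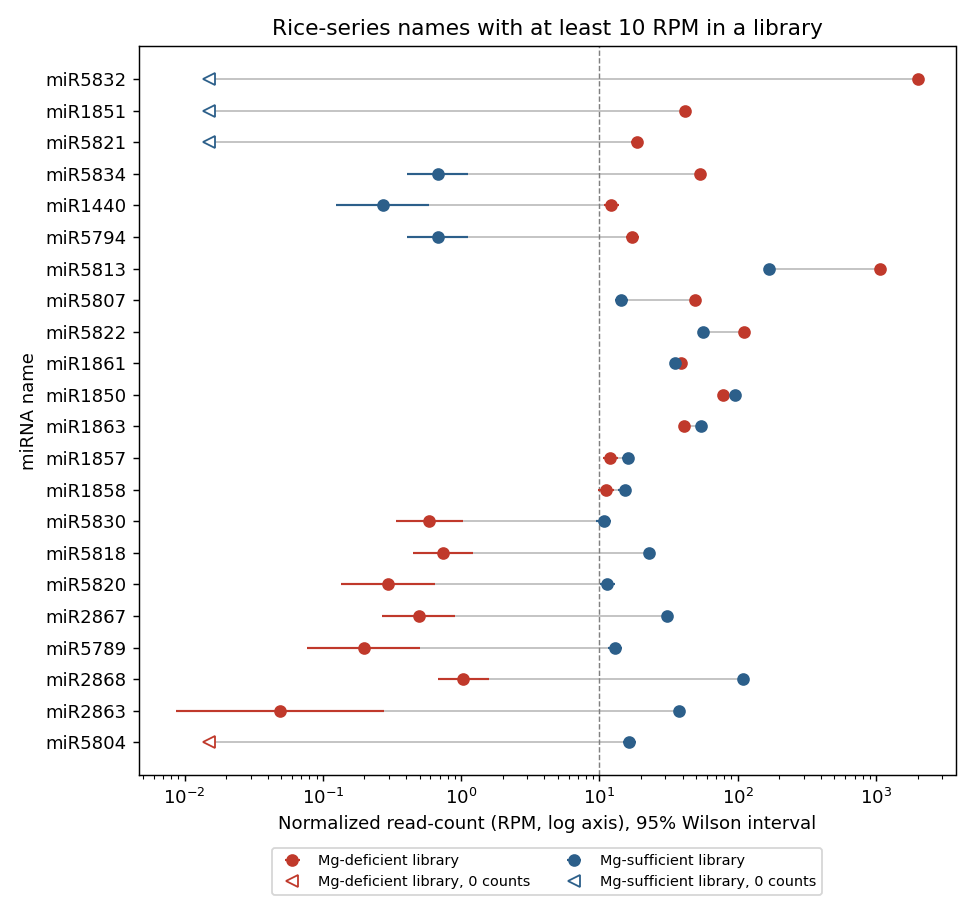
Normalized read-count (RPM, log axis) of the 22 rice-series names with at least 10 RPM in a library, Mg-deficient in red and Mg-sufficient in blue, with 95% Wilson intervals that cover counting error only, open triangles for 0 counts and a dashed line at the 10 RPM filter. The 8 names at the top are higher and the 8 at the bottom lower in the Mg-deficient library, and the 6 between them lie close together.

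Among the names called higher, miR5832 was the most abundant. It had 40754 counts (2005 RPM) in the Mg-deficient library, where it was the known miRNA with rank 15 by count, and 0 counts in the Mg-sufficient library. Against 3 counts in the Mg-sufficient library the ratio was 14848-fold, and the lower end of its counting interval was 12075-fold. This ratio rests on sequencing reads alone. The paper names miR5832 among the few miRNAs whose qRT-PCR did not match the sequencing, and its qRT-PCR values were not used here. Whether reads of this 18-nt sequence come from ribosomal RNA was not tested. MiR5813 had 21623 counts (1064 RPM) in the Mg-deficient library and 3747 counts (169 RPM; 95% Wilson interval, 163 to 174) in the Mg-sufficient library. Its sequence was not compared with ribosomal RNA either. With a log2 ratio of 2.66 (2.61 to 2.71), miR5813 had the narrowest counting interval of the increases called, since both libraries had many reads. MiR5807 likewise had reads in plenty in both, with 1000 counts (49.2 RPM) in the Mg-deficient and 319 counts (14.4 RPM) in the Mg-sufficient library, and its log2 ratio of 1.78 (1.59 to 1.96) was the smallest of the increases called. Only miR5813 and miR5807 among the names called reached 10 RPM in both libraries.

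The other 5 names called higher were near or at 0 in the Mg-sufficient library. Like miR5832, they passed the filter through the Mg-deficient library alone, so that this contrast is not independent of the selection. MiR5834 had 1079 counts (53.1 RPM) in the Mg-deficient and 15 counts (0.675 RPM) in the Mg-sufficient library, and was 78.6-fold higher (47.5 to 141). MiR5794, also with 15 counts in the Mg-sufficient library, had 351 counts (17.3 RPM) in the Mg-deficient library and a log2 ratio of 4.68 (3.93 to 5.53). MiR1440 had 248 counts (12.2 RPM) in the Mg-deficient and 6 counts (0.270 RPM) in the Mg-sufficient library, with a log2 ratio of 5.50 (4.36 to 6.96). For these names the width of the interval came from the few reads of the Mg-sufficient library. MiR1851 had 840 counts (41.3 RPM) in the Mg-deficient library and 0 in the Mg-sufficient library, which is at least 306-fold higher. MiR5821 had 379 counts (18.6 RPM) in the Mg-deficient library and 0 in the Mg-sufficient library, which is at least 138-fold higher.

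The 8 names called lower all passed the filter through the Mg-sufficient library alone. Their sums were 3.39 RPM in the Mg-deficient and 252.6 RPM in the Mg-sufficient library, a contrast that this selection brings with it. MiR2868 was the most abundant of them, with 21 counts (1.03 RPM) in the Mg-deficient and 2438 counts (109.7 RPM) in the Mg-sufficient library, 106-fold lower (69.3 to 172). MiR2867 had 10 counts (0.492 RPM) in the Mg-deficient and 685 counts (30.8 RPM) in the Mg-sufficient library, a log2 ratio of -5.97 (-7.04 to -5.08). MiR2863 had 1 count in the Mg-deficient and 836 counts (37.6 RPM) in the Mg-sufficient library, and its log2 ratio of -9.58 has a wide interval (-14.88 to -7.10). These 3 are the names between miR2863 and miR2880 that passed the filter. All 3 passed it only through the Mg-sufficient library, so that their common direction is not independent of the filter.

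The remaining 5 decreases were in the block from miR5788 to miR5837. MiR5818 had 15 counts (0.738 RPM) in the Mg-deficient and 507 counts (22.8 RPM) in the Mg-sufficient library, a log2 ratio of -4.95 (-5.80 to -4.21). MiR5789 had 4 counts in the Mg-deficient and 289 counts (13.0 RPM) in the Mg-sufficient library, a log2 ratio of -6.05 (-7.93 to -4.67). MiR5804 had 0 counts in the Mg-deficient and 366 counts (16.5 RPM) in the Mg-sufficient library. Against 3 counts this is a decrease of 112-fold, with a lower interval end of 90.3-fold. Less abundant were miR5820, with 6 counts in the Mg-deficient and 253 counts (11.4 RPM) in the Mg-sufficient library, and miR5830, with 12 and 239 counts (10.8 RPM) in the same libraries. Both lay just above the 10 RPM filter in the Mg-sufficient library, with log2 ratios of -5.27 (-6.73 to -4.13) for miR5820 and -4.19 (-5.16 to -3.36) for miR5830. When the libraries were scaled by the total count of known miRNAs, both dropped under the filter and were no longer called.

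The other 6 names passed the filter without a call, and their smaller ratios follow from this selection. Of these, 5 belong to the block from miR1846 to miR1884. MiR1850 had 1581 counts (77.8 RPM; 74.0 to 81.7) in the Mg-deficient and 2115 counts (95.2 RPM; 91.2 to 99.3) in the Mg-sufficient library, a log2 ratio of -0.29 (-0.39 to -0.20). MiR1863 had 834 counts (41.0 RPM) in the Mg-deficient and 1210 counts (54.5 RPM) in the Mg-sufficient library, a log2 ratio of -0.41 (-0.54 to -0.28). For miR1861, with 786 counts (38.7 RPM) in the Mg-deficient and 779 counts (35.1 RPM) in the Mg-sufficient library, the interval of the log2 ratio of 0.14 included 0. The counts of miR1857 were 243 in the Mg-deficient and 359 in the Mg-sufficient library, and those of miR1858 were 227 and 338 in the same libraries, with log2 ratios of -0.43 and -0.45. These small differences exceed counting error for 4 of the 5 names, but their sign depended on the scaling of the libraries. Scaling by the known miRNA total, which shifted the median of all names that passed by 0.63 on the log2 scale, put miR1850 at 0.34, miR1863 at 0.23, miR1857 at 0.20 and miR1858 at 0.19. With edgeR's TMM and DESeq2's size factors miR1850 alone of the 22 names changed sign, to 0.05 and 0.08. MiR1861 in turn was at -0.12 when the clean-read totals were exchanged between the libraries.

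MiR5822, the last of the 6, had 2272 counts (111.8 RPM; 107 to 116) in the Mg-deficient and 1244 counts (56.0 RPM; 53.0 to 59.2) in the Mg-sufficient library. Its log2 ratio of 1.00 was above 0 under each of the 4 other scalings tried and passed the threshold with the total count of known miRNAs, at 1.63. Its sequence and that of miR5832 are the only listed sequences of 18 nt among the rice-series names.
miR5822: uGUCUGCGagucggguug
Summed over miR5832 and miR5822, the 18-nt names of the series had 2117 RPM in the Mg-deficient and 56.0 RPM in the Mg-sufficient library. Neither of these short sequences was compared with ribosomal RNA. All 18 names of 18 nt in the list, these and those of other series, had 2523 RPM in the Mg-deficient and 612 RPM in the Mg-sufficient library. MiR5832 alone made up 2005 RPM of the Mg-deficient sum, and without it that sum would be the smaller one. The higher sum is therefore no trait of 18-nt names in general. Of the 9 names of 18 nt that passed the filter, 2 were called higher and 1 lower.

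**Figure D4:**
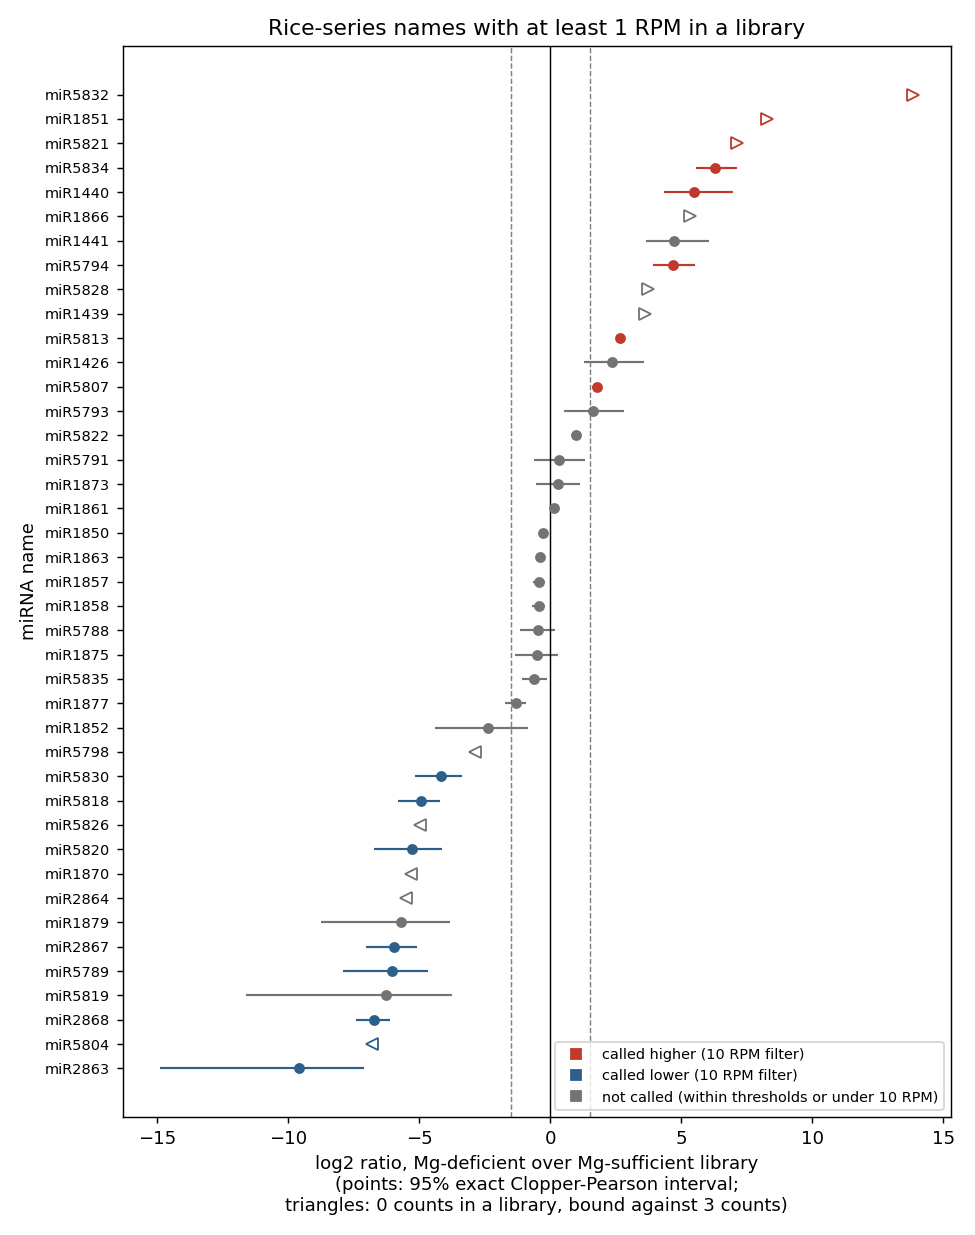
Log2 ratio, Mg-deficient over Mg-sufficient, of the 41 rice-series names with at least 1 RPM in a library, where points carry the 95% exact Clopper-Pearson interval of counting error, triangles are bounds against 3 counts for names with 0 counts in a library, dashed lines mark the log2 threshold of 1.5, and colour marks the call under the 10 RPM filter. The names in the middle, from miR5822 to miR1877, have ratios between 1.00 and -1.32.

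Another 19 names had between 1 and 10 RPM in the library where they were higher. When the filter was set at 1 RPM in at least 1 library, which 59.9% of all names and 41 of the 76 rice-series names passed, 14 of the 41 were called higher (34.1%, beside 25% of all names that passed) and 15 lower (36.6%, beside 31.9%). Of the 19, 6 thus exceeded both thresholds upwards and 7 downwards. Upwards, miR1441 had 168 counts in the Mg-deficient and 7 counts in the Mg-sufficient library, a log2 ratio of 4.71 (3.64 to 6.05). MiR1866 had 111, miR5828 had 36 and miR1439 had 34 counts in the Mg-deficient library. All 3 had 0 counts in the Mg-sufficient library. MiR1426 had 42 counts in the Mg-deficient and 9 in the Mg-sufficient library, and miR5793 had 28 and 10 counts in the same libraries. The interval of miR5793, 0.53 to 2.82 on the log2 scale, reached below the threshold, and so did that of miR1426 (1.29 to 3.58).

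Downwards, miR2864, miR1870, miR5826 and miR5798 were without counts in the Mg-deficient library, against 148, 130, 102 and 24 counts in the Mg-sufficient library. MiR1879 had 2 counts in the Mg-deficient and 114 counts in the Mg-sufficient library, 52.1-fold lower at a log2 ratio of -5.70 (-8.77 to -3.82). MiR5819 had 1 count in the Mg-deficient and 85 counts in the Mg-sufficient library. With 4 counts in the Mg-deficient and 23 in the Mg-sufficient library, the interval of miR1852 (-4.39 to -0.85) reached inside the threshold. The other 6 of the 19 names kept within the thresholds. MiR1877 came closest, with 69 counts in the Mg-deficient and 188 counts in the Mg-sufficient library, a log2 ratio of -1.32 (-1.74 to -0.91). MiR5835 had 60 counts in the Mg-deficient and 100 in the Mg-sufficient library, a log2 ratio of -0.61 with an interval below 0. For miR1873, miR1875, miR5788 and miR5791, with 19 to 52 counts in either library, the interval included 0, so that a difference was not detectable at this depth.

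The remaining 35 names stayed under 1 RPM in both libraries, with at most 20 counts in the Mg-deficient and 21 counts in the Mg-sufficient library. More than 3 counts in both were present for 12 of them. MiR1425 had 10 counts in the Mg-deficient and 11 in the Mg-sufficient library, and miR1432 had 12 and 20 counts in the same libraries. MiR1435, miR1853, miR1854, miR1868, miR1878, miR2873, miR5802, miR5810 and miR5817 had 5 to 14 counts in the Mg-deficient and 9 to 21 counts in the Mg-sufficient library. MiR5831, with 19 counts in the Mg-deficient and 6 counts in the Mg-sufficient library, was the only one of the 12 past both thresholds without the filter. Counts were present in the Mg-deficient library alone for 10 of the 35 names (miR1429, miR1442, miR1859, miR1860, miR1882, miR5790, miR5792, miR5806, miR5829 and miR5837) and in the Mg-sufficient library alone for 9 (miR1428, miR1438, miR1855, miR1856, miR1864, miR2875, miR5799, miR5801 and miR5824). The last 4, miR1862, miR2878, miR5812 and miR5815, had counts in both libraries, with 1 to 20 in the Mg-deficient and 2 to 5 in the Mg-sufficient library.

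Over all 76 names, 16 had counts in the Mg-deficient library only (21.1%, beside 16.3% of all names) and 14 in the Mg-sufficient library only (18.4%, beside 21.2%). The other 46 had counts in both (60.5%, beside 62.6%). Without an abundance filter, 19 of the 76 were called higher (25%, beside 18.6% of all names) and 22 lower (28.9%, beside 25.3%). These shares lay within 7 percentage points of those of the whole table.

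Some listed sequences overlap with those of other names, which bears on the counts because reads were matched with up to 2 mismatches. Of the 35 names with a sequence, 3 shared a stretch of 17 nt or more, with no more than 2 mismatches, with another of the 690 listed sequences. Of the 3, miR1439 exceeded the thresholds only without the 10 RPM filter, and the others were not called. The overlapping bases are in capitals in each pair.
miR1858: GUGAUGAGGAGGAGUGGGguc
miR815: aaggGUGAUGAGGAGGAGUGGG
miR1863: agaguUUGUGGCUGUAUCAUUACU
miR2608: UUGUGACUAUAUCAUUACUcu
miR1439: AUUUAGGAACGGGAGUGAGAuauu
miR5175: aaaaAUUUAGGAACAGGAGUGGGA
MiR1858 and miR815 share 18 nt without a mismatch but went in opposite directions. MiR815 had 199 counts in the Mg-deficient and 118 in the Mg-sufficient library, a log2 ratio of 0.88 (0.55 to 1.22). For the sum of both names the log2 ratio was 0.03 (-0.16 to 0.22), where that of miR1858 alone was -0.45. MiR1863 overlaps miR2608, which had 0 counts in the Mg-deficient and 46 counts in the Mg-sufficient library, and the sum of both had a log2 ratio of -0.46, close to that of miR1863 alone. MiR1439, with 34 counts in the Mg-deficient library only, overlaps miR5175, which had 1 count in the Mg-deficient and 23 counts in the Mg-sufficient library. Their sums of 35 and 23 counts in the same libraries gave a log2 ratio of 0.73 (-0.07 to 1.56), so that the apparent presence in only 1 library was not seen in the sum. How reads were divided between these names was not tested.

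MiR1426 starts like miR172, the conserved family that targets APETALA2-like transcription factors, with its first 16 nt in capitals.
miR1426: AGAAUCUUGAUGAUGCauu
miR172: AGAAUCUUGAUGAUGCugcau
The levels differed greatly, with 52745 counts of miR172 in the Mg-deficient and 74690 counts in the Mg-sufficient library, against 42 counts of miR1426 in the Mg-deficient and 9 in the Mg-sufficient library. The log2 ratio was 2.35 for miR1426 and -0.37 for miR172, and their intervals did not overlap.

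The most frequent lengths of the rice-series names with a sequence were 24 nt, with 11 of 35 (31.4%, beside 27.2% of 690 names), and 21 nt, with 10 of 35 (28.6%, beside 34.9%). Sequences of 18 or 19 nt made up 5.71% and 11.4% of the rice-series names, beside 2.61% and 7.54% of the list, and those of 23 nt 5.71%, beside 11.3%. None had 20 nt, beside 5.94% of the list, and no test of these differences was run. Length and first base are those of the listed sequence of a name. Reads were matched with up to 2 mismatches, and the lengths and first bases of the counted reads themselves were not available. The names of 21 nt had 113 RPM in sum in the Mg-deficient and 168.1 RPM in the Mg-sufficient library. Those of 24 nt had 70.4 RPM in the Mg-deficient and 88.6 RPM in the Mg-sufficient library. Of the names of 24 nt, miR1440 was called higher and miR5830 lower. A first base U, typical of miRNAs loaded into AGO1, was present in 17 of 35 (48.6%, beside 49.7%), and a first base A in 13 of 35 (37.1%, beside 30.1%). Calls in both directions were found with either first base, 3 higher and 2 lower with U and 3 higher and 2 lower with A. The 6 called names without a listed sequence (miR5834, miR5794, miR2867, miR2868, miR5804 and miR5820) are not part of these counts.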

How the data were processed

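The authors mapped clean reads to the C. sinensis genome (JGI version 1.1) with SOAP, removed structural RNAs and compared the rest with miRBase 21 plant miRNAs, allowing 2 mismatches. The raw read count of each name in both libraries was deposited. Clean-read totals came from the comparison table deposited by the authors (a table of the paper prints them, with its shares of RNA classes, under the opposite treatments, whereas its supplementary normalized values follow the deposited assignment), whose log2 ratios and p-values were not used. RPM was computed from the counts, with a count of 0 set to 0.01 RPM for the median log2 ratio and the threshold. All 1215 names were tested, and the rice-series names were read from that table. Names and lists were chosen with earlier results of these data known. Every name of the series could be named, in detail from 10 RPM, with counts from 1 RPM, and by range below. Intervals are Wilson (RPM) and exact Clopper-Pearson (ratios) at 95%. PCR copies are not independent molecules. Calling was tested on simulated data with known answers. These were drawn with counting error alone, so that the test cannot show how calls hold under variation between replicates. Other library sizes (exchanged totals, known miRNA counts, edgeR TMM, DESeq2 size factors), filters, thresholds, tests and sums over near-identical names were tried. The conserved families were a list of 34 names. Python 3.11.15, numpy 2.4.6, scipy 1.17.1, pandas 2.3.3, matplotlib 3.10.9, R 4.3.3, edgeR 4.0.16 and DESeq2 1.42.0 were used.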

Additional observations from a re-analysis of the deposited data

How the results depend on the processing

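No paired analysis was possible because each treatment has 1 library. Calls among the rice-series names depended on the abundance filter. Without a filter 19 were higher and 22 lower, beside 226 and 308 of all 1215 names. At 1 RPM there were 14 and 15, beside 182 and 232 over all names. At 50 RPM in at least 1 library there were 3 and 1, beside 49 and 23 over all names. At 10 RPM in both libraries, 2 and 0 of 8 names were called, beside 11 and 8 of 149 over all names. With more than 3 counts required in both libraries 5 were higher and 6 lower, beside 59 and 44 over all names. Under other library sizes, tests and thresholds there were 7 to 10 higher and 6 to 8 lower calls. Over all names these were 85 to 114 higher and 65 to 129 lower calls. The exact test of edgeR, with variation between replicates assumed at a coefficient of 0.4, gave 7 higher and 8 lower calls. Over all names it gave 85 and 74. The median log2 ratio of the names that passed, -0.35, was -0.61 with exchanged totals, 0.28 with the total count of known miRNAs, -0.012 with edgeR TMM, 0.018 with DESeq2 size factors, -0.075 at 10 RPM in both libraries, 1.00 at 50 RPM and -0.13 with near-identical names summed. The log2 ratio of the summed counts, 2.22, was 1.97, 2.86, 2.56 and 2.59 under the 4 scalings in the same order, 1.05 without miR5832 and, in comparisons chosen after seeing the data, 2.53 with miR1869 and -0.18 without miR5832 and miR5813 (-0.44, 0.45, 0.16 and 0.19 under the 4 scalings). These settings differed from the main setting in the scaling, the filter, the names included or the summing of near-identical names. No called name changed sign under any scaling. With the known miRNA total miR5820 and miR5830 lost their call, and miR5830 did so with edgeR TMM and DESeq2 size factors as well, since they dropped under 10 RPM. Biological variation cannot be estimated from 1 library per treatment.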
